A study of Homo sapiens and Mus musculus with 16 samples.

Results

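The HOX gene clusters were examined as 38 genes in 4 clusters, HOXA, HOXB, HOXC and HOXD, and as the accessible regions that lie within them. A region was a member when it touched the stretch from 10 kb before the first to 10 kb after the last of the examined genes of a cluster, in GENCODE annotation of hg38 for the human lists and of mm10 for the mouse orthologs. These windows were chr7:27090354-27210091, chr17:48518526-48738750, chr12:53928831-54066030 and chr2:176082721-176200907 in hg38 for HOXA, HOXB, HOXC and HOXD. In mm10 they were chr6:52152417-52270880, chr11:96184316-96378256, chr15:102911103-103046852 and chr2:74658310-74775142. They held 73 of 118107 regions in HPAF-II control (Cas9), 62 of 97047 in HPAF-II HNF4G-KO, 9 of 68074 in the KPC primary tumor line and 15 of 80843 in the KPC liver mets line.

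ATAC-seq, in which a transposase cuts and tags open chromatin, was run on 16 samples, 4 replicates of each of 4 groups. HPAF-II is an established human pancreatic adenocarcinoma cell line; its control received Cas9, and the HNF4G-KO cells were a pool of 3 knockout clones made by CRISPR against HNF4G, a nuclear receptor. The KPC lines were grown from a mouse model of pancreatic cancer, one from a primary tumor and one from a liver metastasis, and both were untreated and, like the HPAF-II control, labelled wild type. The first pair asks what changes when HNF4G is lost, and the second what differs between a primary tumor and its metastasis. Each group was represented by 1 region list, so there was no spread between replicates, no difference between groups was tested, and 1 clone pool or 1 cell line stood for each condition. All 5 epithelial marker genes (EPCAM, KRT8, KRT18, KRT19 and CDH1) had a region within 1 kb of their start in each list, and neither leukocyte marker (PTPRC, CD3E) had one in any list. ATAC-seq regions do not measure loss of the HNF4G protein, and no check of the knockout was made here.

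HOX genes encode homeodomain transcription factors that give cells their position along the body axis. They lie in order in each cluster, from the low-numbered paralogs used in anterior tissue to the high-numbered, posterior ones, and genes of the same number in different clusters are paralogs. In tissues where a cluster is silent it is commonly covered by Polycomb repression, while CTCF, an insulator protein, marks boundaries inside the clusters between active and silent stretches.

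The following sequences are shown because they lie in regions accessible in both species. They are stretches of HOX regions from either species around a match to the 12-letter CTCF consensus with at most 1 mismatch, given 5′ to 3′ on the strand of the match, with the match in capitals. They were read from the hg38 and mm10 genomes. The human stretches lie at chr7:27161129-27161158 (minus strand, between HOXA7 and HOXA9), chr7:27179897-27179926 (minus, in a HOXA10 UTR exon), chr7:27210496-27210555 (plus, beyond HOXA13), chr17:48618722-48618781 (minus, near HOXB8) and chr2:176097735-176097794 (minus, near HOXD12). The labels of the sequences name the member with the nearest start, which for the stretch in the HOXA10 exon is HOXA11. The mouse stretches lie at chr6:52221800-52221829 (minus), chr6:52240532-52240561 (minus), chr6:52270678-52270737 (plus), chr11:96278924-96278983 (plus) and chr2:74673154-74673213 (minus).
HOXA7 human: aaacggcggCCAGCAGATGGCagtgtggct
Hoxa7 mouse: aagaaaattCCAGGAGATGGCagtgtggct
HOXA11 human: gcgcagccgCCACGAGATGGCgcacttccg
Hoxa11 mouse: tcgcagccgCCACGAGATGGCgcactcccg
HOXA13 human: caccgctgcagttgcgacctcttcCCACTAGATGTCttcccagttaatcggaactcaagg
Hoxa13 mouse: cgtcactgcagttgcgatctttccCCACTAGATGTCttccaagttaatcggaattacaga
HOXB8 human: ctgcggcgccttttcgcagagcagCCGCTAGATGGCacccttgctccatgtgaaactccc
Hoxb8 mouse: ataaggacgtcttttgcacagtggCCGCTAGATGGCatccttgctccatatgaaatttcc
HOXD12 human: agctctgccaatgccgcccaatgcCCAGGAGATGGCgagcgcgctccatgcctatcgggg
Hoxd12 mouse: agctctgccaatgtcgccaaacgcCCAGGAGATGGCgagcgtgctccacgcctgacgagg

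In 4 of the 5 pairs all 12 letters of the match were the same in both species, and in the HOXA7 pair 11 of 12 were. Over the printed stretch, 22 of 30 bases were identical for HOXA7, 28 of 30 for HOXA11, 49 of 60 for HOXA13, 44 of 60 for HOXB8 and 52 of 60 for HOXD12. The HOXA7 and HOXA11 stretches are given short because the mouse or human copy lies in an annotated UTR.

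The second set shows a region whose sequence was nearly the same in both species, and the HNF4 matches of the human clusters. The first pair surrounds a FOXA match (TGTTTAC, in capitals), at chr7:27115280-27115339 (hg38, minus strand) and chr6:52177087-52177146 (mm10, minus strand), in the noncoding gene HOXA-AS2 in human and a Hoxa3 intron in mouse, with HOXA2 the nearest member start. The last 2 surround the HNF4 consensus CAAAGTCCA, at chr7:27133901-27133960 (minus), within a HOXA3 intron near HOXA4, and chr12:53994356-53994415 (minus), in the HOXC-AS2 region near HOXC9.
HOXA2 side human: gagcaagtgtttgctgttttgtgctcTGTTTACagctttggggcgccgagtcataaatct
Hoxa2 side mouse: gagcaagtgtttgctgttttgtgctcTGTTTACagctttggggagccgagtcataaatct
HOXA4 human: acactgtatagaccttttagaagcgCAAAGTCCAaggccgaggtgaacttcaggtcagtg
HOXC9 human: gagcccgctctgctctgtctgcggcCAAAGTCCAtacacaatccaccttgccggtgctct
The FOXA pair shared 59 of 60 bases.

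In HPAF-II cells the clusters held more accessible regions per length than the genome. In the KPC lines the density was below that of the genome, narrowly so in mets. It rested there on 9 regions in the primary tumor and 15 in mets, and counting error was not estimated for these densities. The control list held 12.3 HOX regions per 100 kb of window against 3.82 per 100 kb of the whole genome, and the HNF4G-KO list 10.4 against 3.14. In mouse the values were 1.59 per 100 kb against 2.5 in the primary tumor, and 2.65 against 2.97 in mets. Regions covered 47096 bp, or 7.91% of the windows, in control and 38741 bp, or 6.51%, in HNF4G-KO, where they covered 2.17% and 1.74% of the genome. They covered 3949 bp (0.699%) in the primary tumor and 5003 bp (0.886%) in mets, where the genome shares were 1.498% and 1.477%. The mean covered length per HOX region was 645 bp, 625 bp, 439 bp and 334 bp in that order. The human and mouse lists came from different species, cell lines and libraries, which cannot be told apart here.

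The human regions were spread over each cluster and lay mostly away from the 1 start used per member. HOXA held 18 control and 17 HNF4G-KO regions, HOXB 22 and 21, HOXC 23 and 16, and HOXD 10 and 8. By length HOXA was the most open, with 13.1% of its window covered in control and 10.7% in HNF4G-KO, and HOXD the least, with 3.64% and 2.80%. Of the 73 control regions, 58 lay more than 1 kb from the start used for every member. By their center, 35 were in an intron, 25 in an exon and 13 between genes. Several of the 58 overlapped another annotated transcript start, of a member or of another gene, and so were not distal to every start. Examples were the region in the HOXA10 UTR exon and one in introns of HOXC4 and HOXC6 transcripts. The share of such regions over the whole list was not measured.

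**Figure D1:**
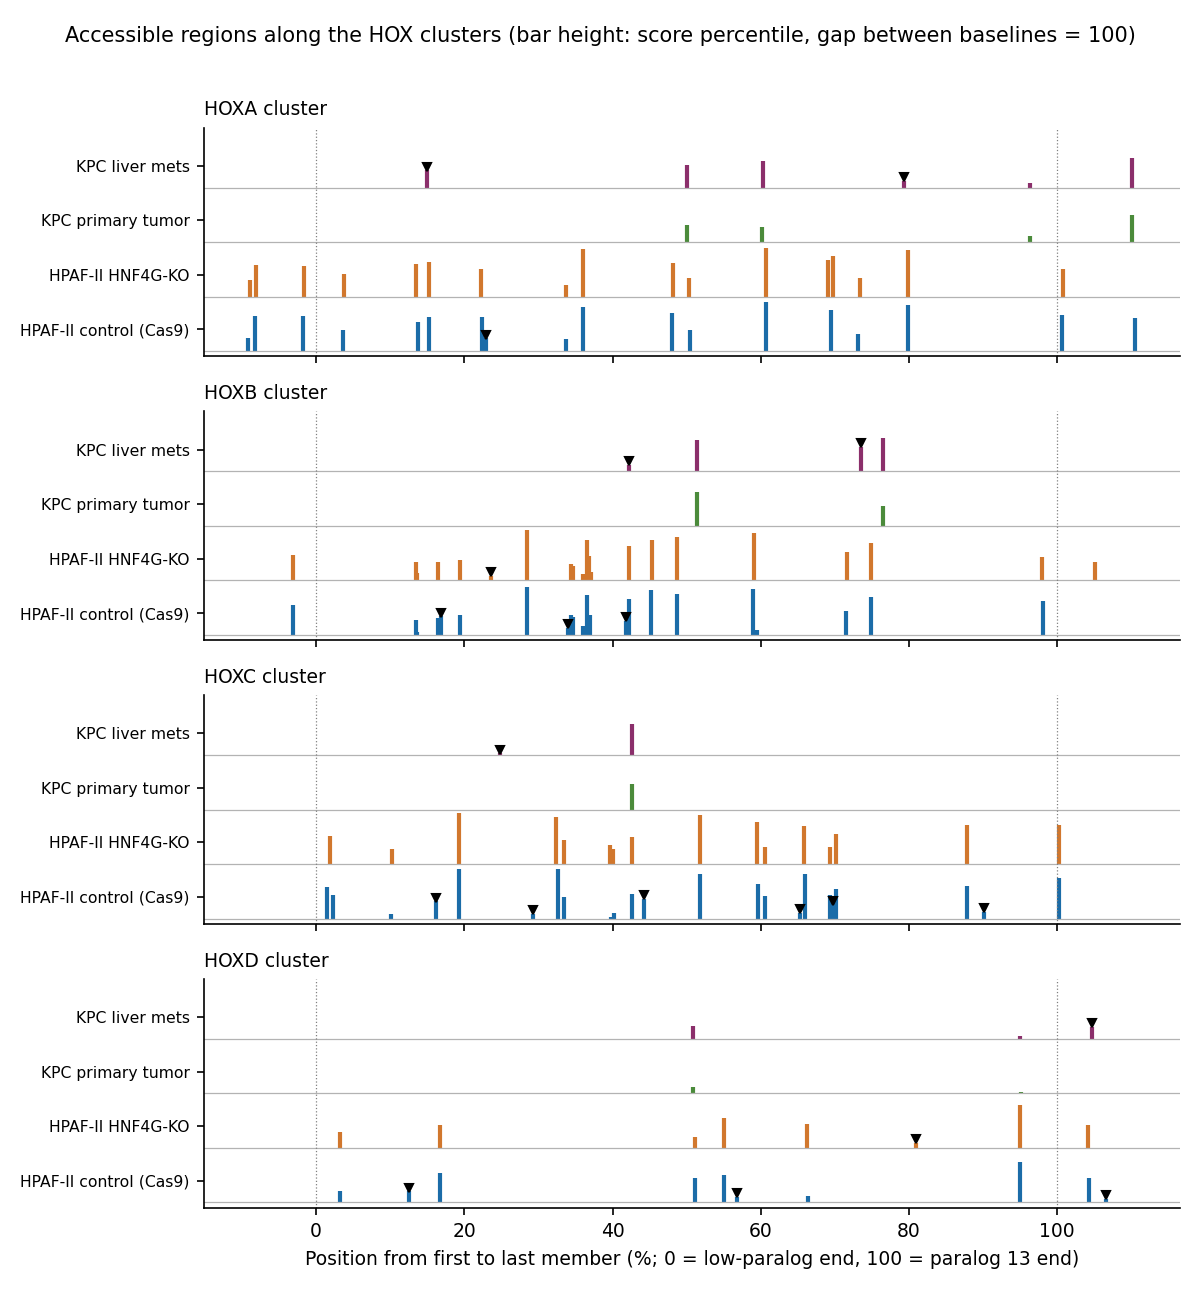
Each bar is an accessible region, placed by its center on the horizontal axis as percent of the stretch from the first to the last member of the cluster, with height giving its score percentile in its own list; black triangles mark regions in one list of the pair. HPAF-II rows hold 73 and 62 bars across the 4 clusters and KPC rows 9 and 15.

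Most members had no region at the 1 start used per gene. A region within 1 kb of the start was present at 12 of 38 members in control (31.6%, Wilson 95% interval 19.1 to 47.5) and at 11 of 38 in HNF4G-KO (28.9%, 17.0 to 44.8). Over all protein-coding genes the shares were 68.3% and 66.7%. By the same 1 start no member had one in either KPC list, where 54.0% of protein-coding genes did in the primary tumor and 54.7% in mets. A count of 0 of 38 allows a share of up to 7.89% by the limit of 3 counts, and the Wilson interval reaches 9.18%; such intervals and limits cover counting error only. In control 26 of 38 starts had no region within 1 kb, and in HNF4G-KO 27. With any annotated transcript start allowed, 20 of 38 members had a region in control and 19 of 38 in HNF4G-KO. In the primary tumor 1 member then had one, and in mets 2. Whether most HPAF-II members lacked a region thus depended on the transcripts allowed. The share over all protein-coding genes was not measured for that setting.

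A start with a region within 1 kb is called open here, and HOXC supplied 6 of the 12 in control and 6 of the 11 in HNF4G-KO. In both HPAF-II lists 6 of its 9 members had a region at the start: HOXC4, HOXC5, HOXC8, HOXC10, HOXC11 and HOXC13. HOXA had 4 of 10 in control (HOXA2, HOXA6, HOXA10 and HOXA13) and 3 in HNF4G-KO, HOXB had 1 of 10 (HOXB9), and HOXD had 1 of 9 (HOXD1). By number, 3 of 11 members of paralog groups 1 to 4 had an open start in control, 3 of 11 of groups 5 to 8 and 6 of 16 of groups 9 to 13. The members with none in either list, by the 1 start used per gene, were HOXA3, HOXA4, HOXA5, HOXA7, HOXA9 and HOXA11, HOXB1 to HOXB8 and HOXB13, HOXC6, HOXC9 and HOXC12, and HOXD3, HOXD4 and HOXD8 to HOXD13. HOXB13, a posterior gene known from prostate, had its nearest control region 3520 bp from the start.

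The scores are given as percentiles, the rank of a region within its own list from 0 for the lowest to 100 for the highest, since their scale is not stated. HOXC5 had the highest open start. Its region, at chr12:54032688-54034226 and centered in coding exon, stood at percentile 90.7 in control and 94.7 in HNF4G-KO. HOXB9 and HOXC13 were both at 74.5 in control, with 78.8 and 71.8 in HNF4G-KO. HOXA10 stood at 31.4 and 34.0, and HOXC11 at 54.3 and 56.1. The median over the open member starts was 60.7 in control and 56.1 in HNF4G-KO, against 84.0 and 83.8 over all protein-coding genes with an open start. These ranks depended on the transcript chosen for HOXA10 and HOXC4. With any annotated transcript start allowed, HOXA10 stood at 84.6 in control and 85.0 in HNF4G-KO, through the region in its UTR exon. HOXC4 then stood at 90.2 and 87.3.

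Between control and HNF4G-KO the open starts were the same apart from HOXA2. In control the HOXA2 region lay 925 bp from the start at percentile 38.7, and the region it overlapped in HNF4G-KO began 1239 bp away at percentile 41.2, so that it missed the 1 kb limit but was present. At each open member start the highest region was shared by both lists, as it was at most open starts of other genes. Over all protein-coding genes with an open start, it was in one list for 486 of 13691 in control and 183 of 13366 in HNF4G-KO. The 3 members with the largest upward shift in rank were HOXC8 (10.4 in control and 35.6 in HNF4G-KO), HOXC10 (63.0 and 77.6) and HOXD1 (21.2 and 29.5). The 3 with the largest downward shift were HOXA13 (65.6 and 51.2), HOXA6 (69.9 and 61.7) and HOXC4 (58.3 and 51.2). Of the 11 members with an open start in both lists, 7 ranked higher in HNF4G-KO and 4 lower. Over the 13219 protein-coding genes with an open start in both lists, 44.8% ranked higher in HNF4G-KO. The values of HOXC8 came from different regions, since the control region at 10.4, which overlapped the start, paired with an HNF4G-KO region at 27.7, and the HNF4G-KO region at 35.6 paired with a control region at 2.46. The shift of HOXC10 turned when only regions within 500 bp of the start were taken (42.1 in control and 31.3 in HNF4G-KO), and that of HOXC4 when the region had to overlap the start (44.1 and 51.2). With 1 list per group these shifts have no replicate check.

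**Figure D2:**
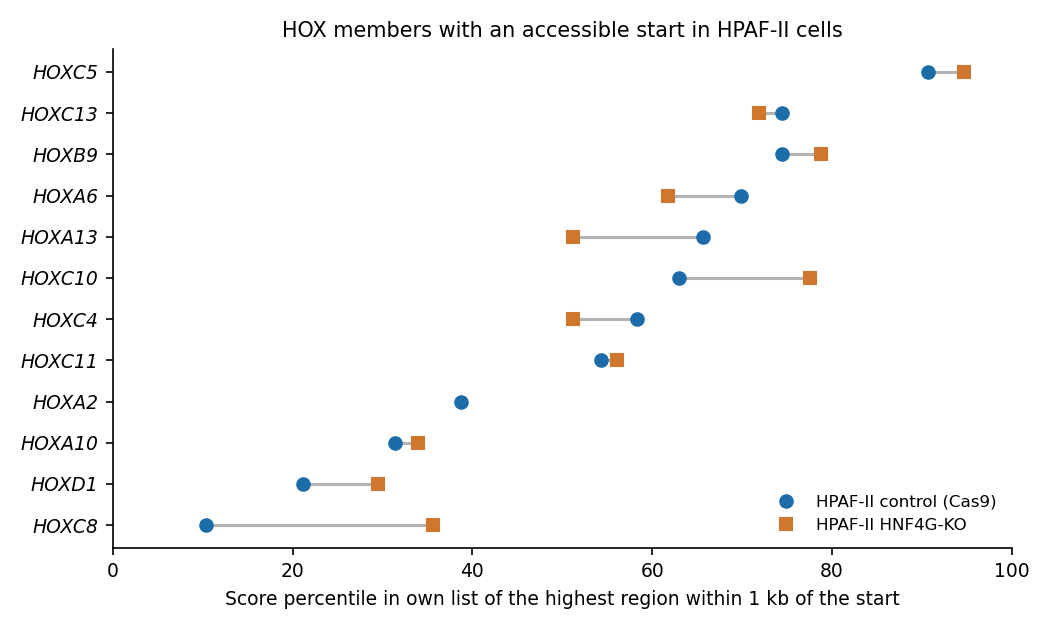
For the 12 members with a region within 1 kb of the start in HPAF-II cells, the horizontal axis gives the score percentile of the highest such region in control (circles) and HNF4G-KO (squares). HOXC8 shows the widest gap, 10.4 against 35.6 (27.7 for the region overlapping the start), and HOXA2 has no square because its HNF4G-KO region began 1239 bp from the start.

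Several noncoding RNAs of the clusters shared their start region with a member. Of 23 listed in human, 11 had a region at the start in control (47.8%) and 10 in HNF4G-KO (43.5%). Over all protein-coding genes the shares were 68.3% and 66.7%. In either list 6 of these noncoding genes had as their highest region the one that also served a member. HOTTIP, transcribed away from HOXA13 and known to act on the posterior HOXA genes, shared the HOXA13 region at 65.6 and 51.2. HOTAIR, the antisense RNA of the HOXC cluster, shared the HOXC11 region at 54.3 and 56.1, and HOXC13-AS the HOXC13 region at 74.5 and 71.8. MIR615, a microRNA gene inside HOXC5, lay at the HOXC5 region. MIR196B, whose family targets HOX transcripts, had its own region, also that of HOXA10-AS, at 75.7 and 74.8. HAGLROS, in the HOXD cluster, was the one noncoding start with a region in control at percentile 20.2 and none in HNF4G-KO. In mouse 1 of 16 had a region at its start in each list, where 54.0% and 54.7% of protein-coding genes did. It was Hoxd3os1, with percentile 11.6 in the primary tumor list and 24.2 in mets.

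Several genes just outside the clusters had high-ranking regions at the start in both species. SKAP2 beside HOXA stood at percentile 93.2 in control, 94.2 in HNF4G-KO, 94.1 in the primary tumor and 90.5 in mets. CALCOCO1 beyond HOXC stood between 97.6 and 99.5 in the 4 lists. LNPK, beyond EVX2 beside HOXD, stood between 96.2 and 97.8. EVX1 and EVX2, homeobox genes next to the posterior ends of HOXA and HOXD, had no region at the start in any list. In all, 7 of 12 neighbors had an open start in both human lists (58.3%) and 6 of 10 in both mouse lists (60%). Over all protein-coding genes the shares were 68.3% and 66.7% in human and 54.0% and 54.7% in mouse. The median percentile at open neighbor starts was 95.8 and 96.0 in human and 95.2 and 93.8 in mouse. Over all protein-coding genes with an open start it was 84.0 and 83.8 in human and 73.2 and 75.8 in mouse.

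Most genes for factors that work with or on HOX genes had an open start in both species, as did 68.3% and 66.7% of all protein-coding genes in the human lists and 54.0% and 54.7% in the mouse lists. The cofactor genes of the PBX, MEIS and PKNOX families, whose proteins bind DNA together with HOX proteins, had open starts for 8 of 9 in both human lists, 7 of 9 in the primary tumor and 8 of 9 in mets. Meis1 had a region at the start in mets at percentile 57.8 and none in the primary tumor. Of 24 regulators (Polycomb and MLL components, H3K27 demethylases, CTCF, CDX factors and retinoic acid receptors and enzymes) 20 were open in control, 21 in HNF4G-KO, 21 in the primary tumor and 20 in mets. The Wilson intervals of the cofactors in control (56.5 to 98.0) and of the regulators in control (64.1 to 93.3) include the share over all genes. So do those of the cofactors in HNF4G-KO (56.5 to 98.0) and in the primary tumor (45.3 to 93.7). The interval of the cofactors in mets (56.5 to 98.0) lay above that share. Those of the regulators also did in HNF4G-KO (69.0 to 95.7), the primary tumor (69.0 to 95.7) and mets (64.1 to 93.3). CBX2, a Polycomb reader, had a start region in HNF4G-KO at 35.6 and none in control. RING1, a Polycomb ubiquitin ligase, had 2 in control, the higher of which (23.1) was absent from HNF4G-KO, where its region stood at 22.5. Cyp26a1, which degrades retinoic acid, had one in the primary tumor at 6.65 and none in mets.

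**Figure D3:**
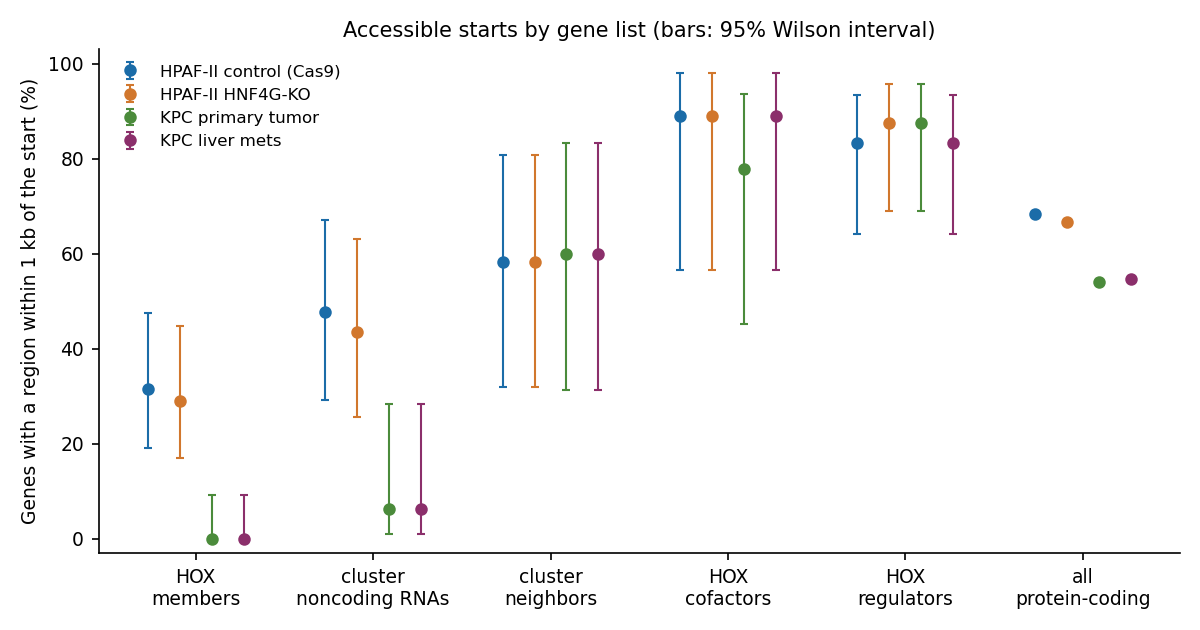
Percent of genes with a region within 1 kb of the start (vertical axis) for HOX members, other gene lists of the clusters and all protein-coding genes, in each of the 4 region lists; bars are 95% Wilson intervals, which cover counting error only. HOX members stand at 31.6% and 28.9% in HPAF-II and at 0 in both KPC lists, while cofactors and regulators stand between 77.8% and 88.9% in all 4.

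Most HOX regions of HPAF-II were present both in control and in HNF4G-KO. Control-only regions, with no overlap of 1 bp in HNF4G-KO, were 13 of 73 (17.8%, 95% interval 10.7 to 28.1), where the share over the whole control list was 25.0%. HNF4G-KO-only regions were 2 of 62 (3.23%, 0.889 to 11.0), where the whole-list share was 6.76%. The control-only regions were 201 to 506 bp wide and stood between percentiles 6.42 and 36.3. None lay within 1 kb of the 1 start used per member. Width, rank and start distance were not measured for the control-only regions of the whole list, so these traits cannot be called particular to the HOX windows. How deeply the groups were sequenced is not known. A list made from more reads holds more weak regions, and the part of depth in these counts was not tested.

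The 5 highest control-only regions were all intronic. The first, at chr12:54004074-54004345 in the long HOXC6 intron 3913 bp from the HOXC9 start, stood at percentile 36.3. The next were at chr17:48562200-48562434 in a HOXB3 intron (33.9, nearest start HOXB4) and chr12:54036897-54037124 in a HOXC4 intron (31.6, nearest start HOXC5). The other 2 were at chr12:53974231-53974437 in HOXC11 (26.0) and chr17:48612195-48612398 in an intron shared by HOXB7 and HOXB8 transcripts (25.7). The HNF4G-KO-only regions were chr17:48575467-48575856, in a UTR exon of HOXB4, and chr2:176111263-176111483, in a HOXD10 intron with HOXD11 the nearest start, both at 8.54. By cluster the control-only counts were 1 in HOXA, 3 in HOXB, 6 in HOXC and 3 in HOXD.

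The 60 control regions that HNF4G-KO shared ranked higher in HNF4G-KO more often than the list as a whole. Their median change in percentile, HNF4G-KO minus control, was 1.58 (order-statistic 95% interval -2.83 to 4.00), and 33 of 60 (55.0%) ranked higher in HNF4G-KO, against a median of -4.65 and 30.0% ranking higher over the 88632 shared regions of the list. Ranked only among the shared regions of each list, the median was 8.32 (5.68 to 13) and 50 of 60 ranked higher, against 0.68 and 53.4%. HOX regions were rich in CpG, and over the list CpG-rich shared regions (observed over expected above 0.6) also ranked higher more often: 69.2% of 14133 on this second scale, beside 27 of 31 (87.1%) in the HOX windows. Among the CpG-poor shared regions the values were 50.4% of 74499 and 23 of 29 (79.3%). On the own-list scale 61.3% of CpG-rich and 48.3% of CpG-poor HOX regions ranked higher, against 47.2% and 26.7% over the list, so that the HOX share was above that of the list in both classes. In control the shared HOX regions had a median percentile of 54.3, against 62.1 over all shared regions. The shares were not matched for this starting rank and were not tested. By cluster the median change on the own-list scale was -0.86 in HOXA (17 shared), 1.56 in HOXB (19), 4.01 in HOXC (17) and 3.30 in HOXD (7).

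Single regions moved further. A region 2851 bp from the HOXD9 start went from 11.3 in control to 44.4 in HNF4G-KO, and the weaker of the 2 HOXC8 start regions from 2.46 to 35.6. A HOXC4 intron region 9606 bp from its start went from 8.97 to 28.0. In the other direction, a HOXD3 intron region with HOXD4 the nearest start went from 44.1 to 20.4, the region 9896 bp from HOXA13 from 60.3 to 39.4, and one 3520 bp from HOXB13 from 62.7 to 42.6. The most extreme pair, a 274 bp control region beyond HOXB9 at 8.97 paired with HNF4G-KO at 86.9, came from 1 wide HNF4G-KO region that overlapped 2 control regions. These regions were picked after their values were seen.

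**Figure D4:**
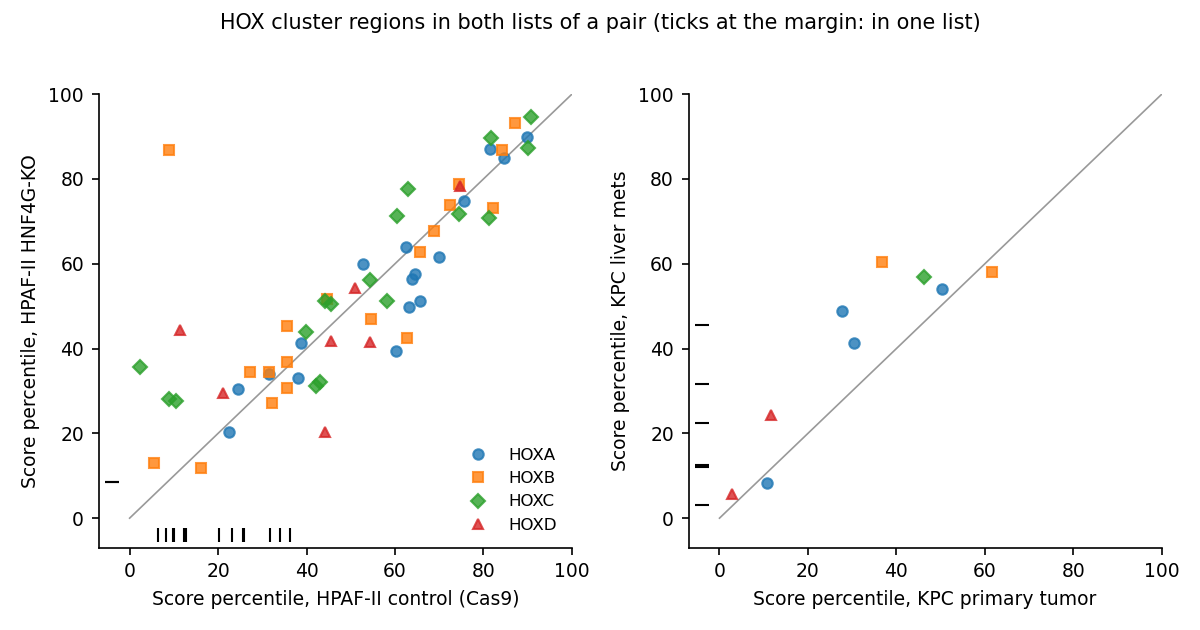
Score percentile of each shared HOX region in the first list of a pair (horizontal) and in the region it overlaps in the second (vertical), for HPAF-II on the left (60 regions) and KPC on the right (9); ticks at the margins are regions in one list and the diagonal marks equal rank. One-list ticks lie at or below 36.3 for control and 8.54 for HNF4G-KO, and 7 of 9 KPC regions lie above the diagonal.

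The highest-ranking HOX regions of HPAF-II were shared by both lists. After the HOXC5 start came a region at chr12:54017070-54018519, in introns of HOXC4 and HOXC6 transcripts, at 90.2 in control and 87.3 in HNF4G-KO. By the 1 start used per gene HOXC8 was nearest to it, but another annotated HOXC4 transcript start lay within 1 kb. The intergenic region between HOXA7 and HOXA9, chr7:27160391-27161483, stood at 89.9 and 89.8, and a HOXB3 intron region at chr17:48585024-48586141 at 87.1 and 93.2. The widest were at the HOXB9 start (2056 bp in control, 1921 bp in HNF4G-KO), at HOXC-AS2 (1835 bp and 1837 bp) and, in control, at the HOXA6 start (1825 bp). The median percentile of HOX regions was 44.1 (35.5 to 58.3) in control and 50.2 (41.2 to 60.04) in HNF4G-KO.

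In the KPC lines, by an overlap of 1 bp, mets held all 9 HOX regions of the primary tumor and 6 more. None of the 9 primary tumor regions was in one list, where the whole-list share was 8.51%. A count of 0 of 9 allows up to 33.3% by the limit of 3 counts, and the Wilson interval reaches 29.9%. Mets-only regions were 6 of 15 (40.0%, 19.8 to 64.3), where the whole-list share was 20.2%. With the lists cut to equal size, 2 of 9 primary tumor regions (22.2%, whole list 15.6%) and 3 of 10 mets regions (30%, whole list 14.0%) were in one list, and with an overlap of at least 50% of the region 1 of 9 primary tumor regions was. The highest mets-only region, at chr11:96240239-96240571, lay between genes 30886 bp from the Hoxb9 start at percentile 45.6. The others were at chr6:52177020-52177358 in a Hoxa3 intron (31.6, nearest start Hoxa2), chr2:74663628-74663894 beyond Hoxd13 (22.4), chr11:96294636-96294844 in a Hoxb6 intron (12.5), chr6:52240488-52240687 in a Hoxa10 UTR exon (12.02, nearest start Hoxa11) and chr15:103007968-103008167 in an intron of Hoxc5 and Hoxc6 (3.12). Of the 9 shared regions 7 ranked higher in mets (77.8%), with a median change of 10.6 (-2.49 to 21.2), where the list as a whole had 64.9% and 3.67. Ranked among shared regions only, 6 of 9 were higher in mets, where the list had 54.6%. The 9 had a median percentile of 30.5 in the primary tumor, against 54.1 over all shared regions. These shares were not matched for that starting rank. The regions that lay lower in mets were near Hoxa13 (10.7 and 8.25) and near Hoxb8 (61.7 and 58.0).

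The KPC HOX regions lay in the lower and middle ranks of their lists. Their median percentile was 30.5 in the primary tumor, with an interval of 10.7 to 50.4, and in mets it was 31.6 (12.02 to 54.1). The highest primary tumor regions were near Hoxb8 at 61.7, 9626 bp from Hoxa13 at 50.4 and near Hoxc8 at 46.3. The highest in mets were 36168 bp from Hoxb9 at 60.4, near Hoxb8 at 58.0 and near Hoxc8 at 57.0. The widest in the primary tumor was the Hoxa7 region, of 740 bp, and in mets the region beyond Hoxa13, of 566 bp. Counting the 1 start used per gene, the member start nearest to any KPC region was that of Hoxa3. It lay 1175 bp from a region in the primary tumor list and 1234 bp in mets. By the same starts, the median distance from a member start to its nearest region was 15484 bp and 8864 bp, against 2790 bp in control. The Hoxc cluster held 1 region in the primary tumor and 2 in mets over its whole window.

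The few mouse regions stood mostly on sequence that was also accessible in the human cells. Each of the 15 mets regions aligned to the matching human cluster (blastn, E-value limit 1e-05), at 70.0% to 93.8% identity. The aligned human stretch overlapped a control region for 13 of 15 and an HNF4G-KO region for 13 of 15. Regions covered 7.91% and 6.51% of the bases of the human windows. These measures are unlike: a stretch counted when 1 bp of it overlapped, which happens more readily than for a single base. The HNF4G-KO region aligned to the mets region 9631 bp from Hoxa13 lay outside the window. For the primary tumor, 8 of 9 overlapped a control region. The 2 exceptions in mets were the region 3457 bp from Hoxa13 and the one near Hoxc6, both among the lowest of the list (8.25 and 3.12). The share of human-accessible bases among aligning stretches that hold no mouse region was not measured.

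The alignment also showed which human regions had no mouse counterpart. Of the 73 control regions 67 aligned to the matching mouse cluster, and for 13 of those 67 the aligned stretch held a mets region and for 8 a primary tumor region. The HOXC5 start region aligned over 1506 bp at 94.6% identity and had no mouse region, and neither did the HOXC4 and HOXC6 intron region nearest to HOXC8 (78.6% over 1365 bp) or the HOXB3 intron region (73.9% over 513 bp).

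The human counterpart stood higher in its list than the mets region in its own in 10 of 13 pairs with control and in 9 of 13 with HNF4G-KO. The region between HOXA7 and HOXA9 stood at 89.9 in control and 89.8 in HNF4G-KO, and its mouse counterpart at 27.8 for the primary tumor and 49.0 for mets. The region near HOXD12 stood at 74.6 and 78.4, and its counterpart at 2.73 and 5.68. The one in a HOXA10 UTR exon, with HOXA11 the nearest start, stood at 84.6 and 85.0, and its counterpart, in mets alone, at 12.02. The one near HOXB8 stood at 82.2 and 73.1, and its counterpart at 61.7 and 58.0. Among the pairs that went the other way, the mets region near Hoxc8 stood at 57.0 and its counterpart at 45.4 and 50.5, and the one near Hoxa3 at 41.3 and its counterpart at 38.1 and 33.2. These ranks are each within their own list.

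**Figure D5:**
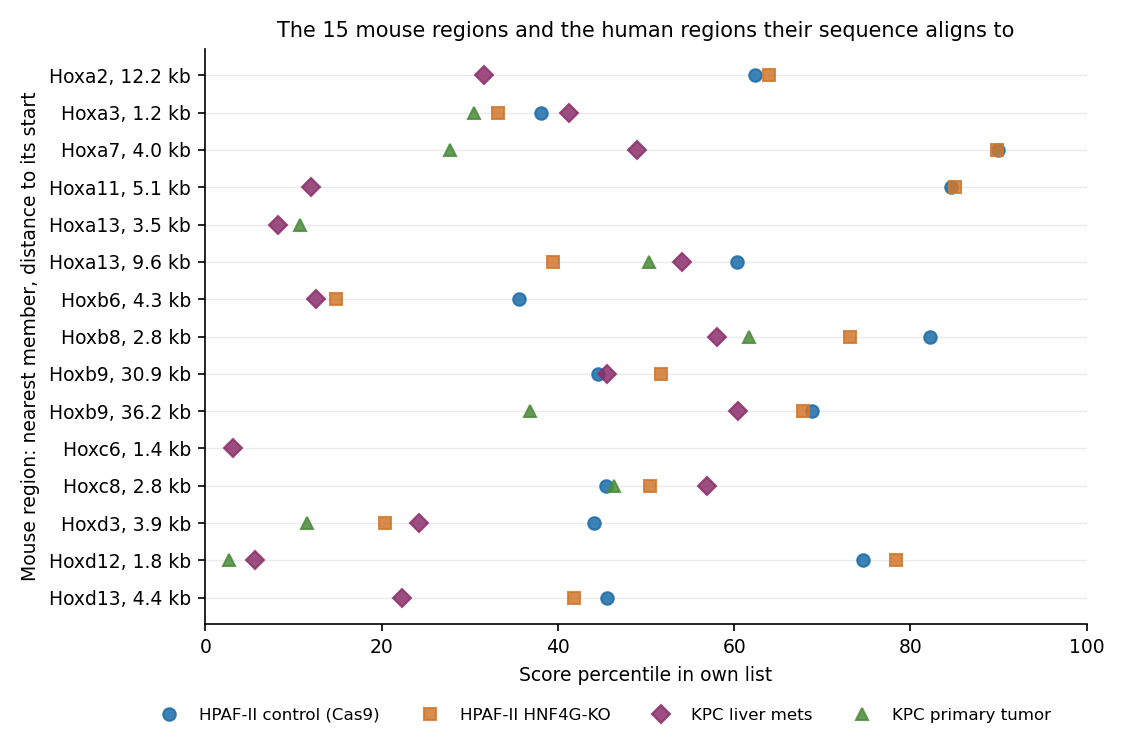
Each row is a mouse HOX region of the mets list, named by the member with the nearest start and the distance to it, and the horizontal axis gives its score percentile in mets (diamonds) and in the primary tumor (triangles) beside the percentile of the human region its sequence aligns to in control (circles) and HNF4G-KO (squares). 13 of 15 rows have human symbols; the rows without are those 3457 bp from Hoxa13 and 1406 bp from Hoxc6.

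The CTCF-like matches printed above lay in several of these conserved regions. With at most 1 mismatch, the CTCF consensus was present in 4 of 9 primary tumor regions (44.4%, 18.9 to 73.3) and 5 of 15 mets regions (33.3%, 15.2 to 58.3), where 19.0% and 18.3% of all regions of those lists held one. Each of these 5 mouse loci aligned to a human region with such a match, which lay in the aligned part. In the human lists 12 of 73 control regions (16.4%, 9.66 to 26.6) and 9 of 62 HNF4G-KO regions (14.5%, 7.83 to 25.3) held one, near the list shares of 17.8% and 18.2%. An exact match was present once in each human list, in the region between HOXA7 and HOXA9, and in no mouse HOX region, where 4.36% of control, 4.60% of HNF4G-KO, 5.31% of primary tumor and 5.22% of mets regions had one. The looser match was chosen after the exact one had been counted. A match is a run of letters and does not show that CTCF was bound.

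Human HOX regions were rich in GC and CpG. Their median GC content was 59.7% in control and 59.3% in HNF4G-KO, against 49.3% and 50% for the lists, and the median CpG observed over expected was 0.586 and 0.623 against 0.218 and 0.229. In mouse the medians were 56.7% and 52.8% for GC against 48.8% and 48.5%, and 0.523 and 0.594 for CpG against 0.231 and 0.227. The posterior HOX and CDX sequence TTTATNG was present on either strand in 35.6% of control HOX regions (25.6 to 47.1) and 35.5% in HNF4G-KO (24.7 to 47.9), where 19.8% and 19.1% of all regions held it. In mouse it was present in 2 of 9 and 4 of 15, where the lists held 21.2% and 19.4%. Region width and composition, which differ between HOX regions and the list, were not matched in these shares.

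HNF4 and FOXA sequences were present in few HOX regions. The HNF4 consensus was present in 2 of 73 control regions (2.74%, 0.755 to 9.45) and 2 of 62 in HNF4G-KO (3.23%, 0.889 to 11.0), where the lists held 1.60% and 1.40%. No mouse HOX region held it, where 1.48% of primary tumor and 1.28% of mets regions did. Both control regions, printed above near HOXA4 and HOXC9, were shared, at 22.6 and 81.8 in control and 20.4 and 89.6 in HNF4G-KO. FOXA matches were present in 6 control regions and 3 HNF4G-KO regions, 8.22% and 4.84%, where the lists held 9.76% and 9.51%. They were present in none of the 9 primary tumor regions (list 9.71%) and in 1 of 15 in mets (list 8.90%), the one nearest to Hoxa2 whose human counterpart carries the same letters. The PBX-HOX sequence TGATTNAT was present in 7 control and 5 HNF4G-KO regions (9.59% and 8.06%, lists 9.14% and 8.81%) and in no mouse HOX region (lists 10.9% and 9.98%). The homeodomain core TAATTA was present in 6 control and 3 HNF4G-KO regions (8.22% and 4.84%, lists 9.61% and 8.98%), in no primary tumor region (list 9.52%) and in 1 mets region (list 8.30%). The retinoic acid receptor direct repeat was present in no HOX region of any list, where 0.0254% of control, 0.0268% of HNF4G-KO, 0.0441% of primary tumor and 0.0396% of mets regions held it.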

How the data were processed

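ATAC-seq was analysed in 16 samples, assigned to 4 groups by title. The labels describe the Omni-ATAC protocol; for this assay the paper's methods mention HPAF-II but not KPC cells. The submitters' processing notes list Bowtie2 2.2.6, MACS2 2.1.1.20160309, DiffBind and the hg38 and mm10 builds. The paper describes the HPAF-II ATAC-seq as a combination of 4 biological replicates. It states merging of replicate alignments before MACS2 and peak-calling settings for ChIP-seq, and for ATAC-seq the threshold, the read shift and whether reads were merged before calling are not given in the sources used here. The authors deposited 1 BED list per group with a score per region, whose scale is not stated, so scores were used as percentile ranks within a list. Read depth is unknown.

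No region ran past a chromosome end in these builds. Sharing was an overlap of 1 bp. Each gene had 1 start (GENCODE 44 and M21, the select, canonical or principal transcript), and a region within 1 kb counted. Intervals are Wilson or binomial order-statistic 95%. Consensus sequences were searched on both strands (the 12-letter CTCF consensus by name, HNF4 CAAAGTCCA, FOXA TGTTTAC, PBX-HOX TGATTNAT, posterior HOX TTTATNG, homeodomain TAATTA and the retinoic acid receptor repeat), and regions were aligned to windows of the other species, widened by 10 kb, with blastn 2.17.0. Python 3.11.15, pandas 2.3.3, SciPy 1.17.1 and samtools 1.23.1 were used. Functions were tested on simulated regions.

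The members and gene lists were chosen with earlier results of these data known. Named were members without a start region, members or list genes with a start region in one list of a pair, the 3 largest shifts each way, the 5 highest one-list regions and the 3 widest and 3 highest regions of a list. Alternatives changed the overlap, the score limit, list size, flank, start distance, transcript choice and ranking.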

Additional observations from a re-analysis of the deposited data

How the results depend on the processing

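No paired analysis was possible because each group was deposited as 1 region list with no values per replicate, and for the same reason no replicate could be left out and no outlier among replicates sought. Over the alternatives tried, 63 of 80 summary values stayed within the interval of the main value or within 1.5 times of it. This is a loose limit, above all for the mouse regions, whose intervals are wide. The primary tumor-only share, 0% in the main setting and 22.2% with lists of equal size, counted as within its interval. The number of members with an open start depended on the distance and on the transcripts allowed. With the region overlapping the start it was 7 in control and 5 in HNF4G-KO, within 2.5 kb it was 19 in HNF4G-KO, 2 in the primary tumor and 3 in mets, and with any annotated transcript start it was 20 and 19 in HPAF-II and 1 and 2 in KPC. With lists of equal size the HNF4G-KO-only share was 12.9% in the HOX windows and 13.1% over the whole list, and the control-only shares were 11.7% and 14.6%. Ranked among shared regions, the median change in HNF4G-KO was 8.32. In the upper 50% by score, regions covered 0.123% of the windows in the primary tumor and 0.273% in mets. With 1 mismatch the CTCF share was 16.4%, 14.5%, 44.4% and 33.3% in control, HNF4G-KO, primary tumor and mets; this choice was made after seeing the data. Limits: lists differ in length and unknown depth, so an absent region may be one not called, 9 and 15 mouse regions leave wide intervals, and ranks do not compare strength across lists.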
